A study of Mus musculus with 4 samples.

Results

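The hypoxia-only peaks standing alone are 229 stretches of accessible chromatin in mouse bone mesenchymal stem cells (MSCs). The peak caller had assigned them to hypoxia-cultured cells only, and no peak shared by hypoxia and normoxia abutted them. They were chosen by 2 criteria, the caller's group assignment and the start and end of each peak, and they made up 229 of the 8754 hypoxia-only peaks and 0.179% of the 128055 peaks of the whole table. The other 8525 hypoxia-only peaks directly abutted 1 of the 119291 shared peaks, and 10 peaks were assigned to normoxia only. The assignment was made from the same hypoxia against normoxia contrast as the signal, so the fall of these peaks in normoxia is what selected them and is given below as a description.

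Chromatin accessibility was profiled by ATAC-seq, an assay whose enzyme, the transposase Tn5, cuts and tags DNA that nucleosomes leave exposed. Accessible stretches away from gene starts are often enhancers, elements bound by transcription factors that act on promoters at a distance and differ between cell types more than promoters do. MSCs give rise to the bone, fat and cartilage lineages, and they reside in a bone niche low in oxygen, which makes their response to atmospheric oxygen a question of interest.

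The cells came from the hind limb bones of wild-type male C57BL/6N mice aged 3 to 5 months. Bone chips and the cells released from them were all first grown at 2% O2, and a CD45-/Ter-119-/CD140a+/Sca-1+ population was sorted. The sorted cells were then kept at 2% O2 (hypoxia, 2 libraries) or moved to 21% O2 (normoxia, 2 libraries), so every library shared the hypoxic outgrowth. The labels call the cells bone marrow MSCs, whereas the study's methods take them from the endosteal bone surface, and whether animals were pooled is not given in the sources used here. Library totals recovered from the values were 28259470 and 29413803 reads in hypoxia against 26680936 and 29965523 in normoxia. Promoter peaks were present for 9 of 10 mesenchymal markers, with none at Lepr, and their summed signal was 1660 to 1712 in hypoxia and 924 to 1046 in normoxia. Of 8 blood markers 3 had a promoter peak (summed signal 155 to 161 in hypoxia and 108 to 121 in normoxia), with none at defining genes such as Ptprc, Cd3e, Itgam and Hba-a1. Of 4 endothelial markers 3 had a promoter peak, with 84.6 to 85.3 in hypoxia and 51.7 to 63.1 in normoxia and none at Cdh5. All 3 marker sums were therefore lower in normoxia, as were most peaks of the table. The libraries also stood apart by group in the share of their total that the peaks held, which was 57.0% and 62.3% in hypoxia against 32.5% and 37.6% in normoxia. This share moved with every fall given below on values as deposited, and its part and that of the marker sums were not tested.

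To show what such a peak looks like in sequence, the central 300 bp of 6 of them are printed from RefSeq's copy of the mm10 genome, plus strand, 5′ to 3′. Capitals mark the letters TGANTCA (AP-1, the Fos and Jun dimers that answer growth and stress signals), TGTGGT (RUNX, the family of the osteoblast factor Runx2) and GGAATG (TEAD, the DNA-bound partners of YAP) on either strand. A match in capitals is a description of the letters and not a binding site. The first 3 are the centres of peaks whose nearest edge lies within 1 kb of the start site of a protein-coding gene and which overlap no protein-coding exon: Sycp3 at chr10:88458101-88458400, Mvp at chr7:127012401-127012700 and Gzmk at chr13:113181451-113181750. The other 3 are the peaks with the highest mean signal in hypoxia: Arhgap44 at chr11:65033401-65033700, Gm3636 at chr14:6756801-6757100 and Pdlim5 at chr3:142423701-142424000.
Sycp3: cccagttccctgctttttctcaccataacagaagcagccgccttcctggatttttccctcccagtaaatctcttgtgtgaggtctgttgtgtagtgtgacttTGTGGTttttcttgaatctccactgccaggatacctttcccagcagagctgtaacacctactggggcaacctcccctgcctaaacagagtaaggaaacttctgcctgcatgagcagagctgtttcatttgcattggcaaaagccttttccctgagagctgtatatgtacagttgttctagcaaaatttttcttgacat
Mvp: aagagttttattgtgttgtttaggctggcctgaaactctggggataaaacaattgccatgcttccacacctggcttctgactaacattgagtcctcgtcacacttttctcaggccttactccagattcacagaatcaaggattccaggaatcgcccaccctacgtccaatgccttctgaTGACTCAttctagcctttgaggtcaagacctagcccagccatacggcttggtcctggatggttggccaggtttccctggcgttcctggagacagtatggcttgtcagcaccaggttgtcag
Gzmk: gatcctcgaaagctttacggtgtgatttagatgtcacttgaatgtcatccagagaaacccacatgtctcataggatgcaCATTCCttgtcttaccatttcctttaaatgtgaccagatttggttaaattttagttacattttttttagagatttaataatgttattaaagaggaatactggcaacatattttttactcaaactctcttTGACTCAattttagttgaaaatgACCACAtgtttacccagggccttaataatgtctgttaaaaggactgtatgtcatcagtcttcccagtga
Arhgap44: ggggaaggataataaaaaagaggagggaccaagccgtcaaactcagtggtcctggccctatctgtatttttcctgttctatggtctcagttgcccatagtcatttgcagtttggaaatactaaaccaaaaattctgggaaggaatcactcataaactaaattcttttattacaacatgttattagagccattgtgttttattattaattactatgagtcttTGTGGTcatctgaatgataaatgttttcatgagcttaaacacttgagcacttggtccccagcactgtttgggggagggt
Gm3636: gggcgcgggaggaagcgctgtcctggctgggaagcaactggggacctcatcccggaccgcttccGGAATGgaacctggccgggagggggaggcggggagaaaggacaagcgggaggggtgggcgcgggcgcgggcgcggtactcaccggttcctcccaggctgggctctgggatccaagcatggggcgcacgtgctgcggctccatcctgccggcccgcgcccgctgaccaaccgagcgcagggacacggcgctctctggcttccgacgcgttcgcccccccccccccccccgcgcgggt
Pdlim5: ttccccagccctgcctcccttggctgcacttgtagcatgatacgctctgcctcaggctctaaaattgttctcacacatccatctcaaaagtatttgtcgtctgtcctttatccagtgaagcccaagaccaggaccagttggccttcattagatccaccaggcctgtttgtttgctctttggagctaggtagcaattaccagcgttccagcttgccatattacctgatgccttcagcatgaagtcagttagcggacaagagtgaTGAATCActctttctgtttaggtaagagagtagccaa
Of these, Gzmk held all 3 motifs, Mvp and Pdlim5 an AP-1 match, Sycp3 and Arhgap44 a RUNX match and Gm3636 a TEAD match. The windows ranged in GC content from 34.3% at Gzmk to 74.3% at Gm3636.

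The 229 peaks were weak and narrow. Their median width was 300 bp, with a range of 100 to 2500 bp, beside a median of 300 bp for the abutting hypoxia-only peaks and 1100 bp for shared peaks. At the narrow end, 35 peaks measured 100 bp, the step size of the caller, and 25 measured 200 bp. At the wide end, 113 were wider than 300 bp and 9 were wider than 1000 bp. Together they covered 97200 bp.

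The signal of a peak was its read number scaled to a library of 10000000 reads, and it was not divided by peak width. Across the 229 peaks the median signal was 4.60 and 6.12 in hypoxia replicates 1 and 2, against 1.12 and 1.0 in normoxia. These medians stand for 13 and 18 reads in hypoxia and 3 in either normoxia library, so a single peak rested on few reads. At least 10 reads in both hypoxia libraries were present at 131 peaks, and under 10 reads in both normoxia libraries at 197. Summed over the 229 peaks the signal was 1250 and 1594 in hypoxia (mean 1422 ± 243, SD, n = 2) and 311 and 307 in normoxia (mean 309 ± 2.87, SD, n = 2). The normoxia libraries thus lay close to each other and together held 0.217 of the hypoxia signal, a ratio that was 0.212 in the abutting hypoxia-only peaks and 0.590 in the shared peaks.

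Both normoxia values lay below both hypoxia values in 205 of the 229 peaks, beside 59.5% of all peaks in the table, and in none did both lie above. Under RLE scaling the count was 195 beside 29.6% of all peaks, and with equal totals over peaks 173 beside 13.5%, and each statement on overlap below is for values as deposited. Since this contrast chose the peaks, nothing is read from these counts. On the log2(signal + 1) scale, without further scaling, the median difference of normoxia minus hypoxia was -1.62, beside -1.31 for the abutting hypoxia-only peaks, -0.41 for shared peaks and -0.44 for all peaks. The difference was negative in 228 of the 229 peaks. After scaling by relative log expression (RLE), which moved the median of all peaks to -0.0040, the median of the 229 was -1.30. In the limma fit over the whole table at a false discovery rate (FDR) under 0.01, 27 of the 229 were called lower in normoxia, beside 4.57% of all peaks, and 694 of the 8525 abutting peaks. Without hypoxia replicate 1 or without hypoxia replicate 2 the fit called 0 of the 229 and 0 of all peaks (132 or 96 of the 229 and 10.8% or 10.4% of all peaks at an unadjusted p under 0.05). Without normoxia replicate 1 it called 37 of the 229 beside 3.78% of all peaks, and without normoxia replicate 2 38 beside 6.35%. The called peaks had a median width of 800 bp and a median hypoxia signal of 12.4, beside 300 bp and 5.64 over all 229. By place, 14 of them were intergenic, 8 intronic, 4 at promoters and 1 exonic.

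**Figure D1:**
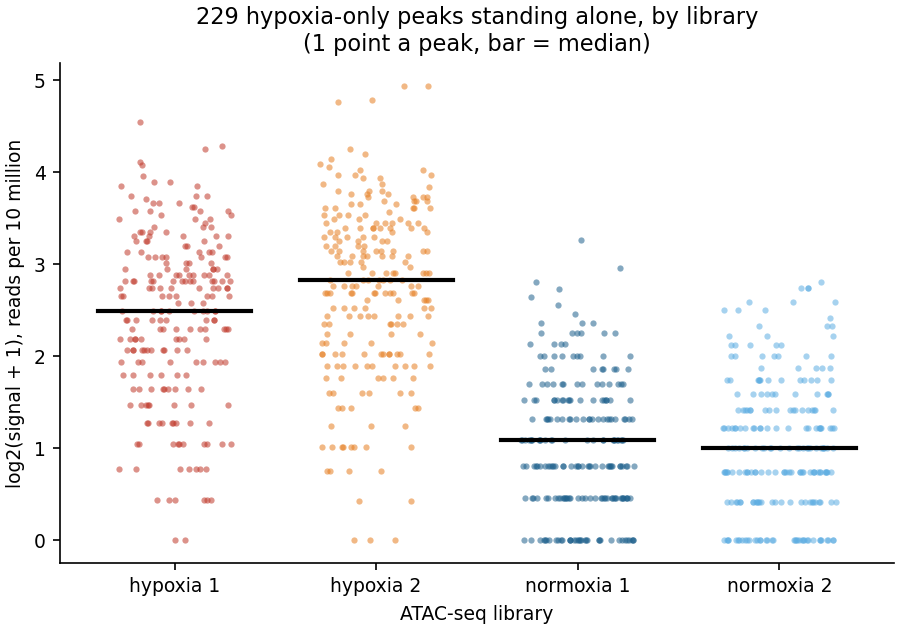
Signal of each of the 229 hypoxia-only peaks standing alone, as log2(signal + 1) of scaled reads, in each of the 4 ATAC-seq libraries, with a bar at the median. The hypoxia medians correspond to signals of 4.60 and 6.12 and the normoxia medians to 1.12 and 1.0, and the rows of points at the bottom are peaks with 0, 1, 2 and a few more reads.

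**Figure D2:**
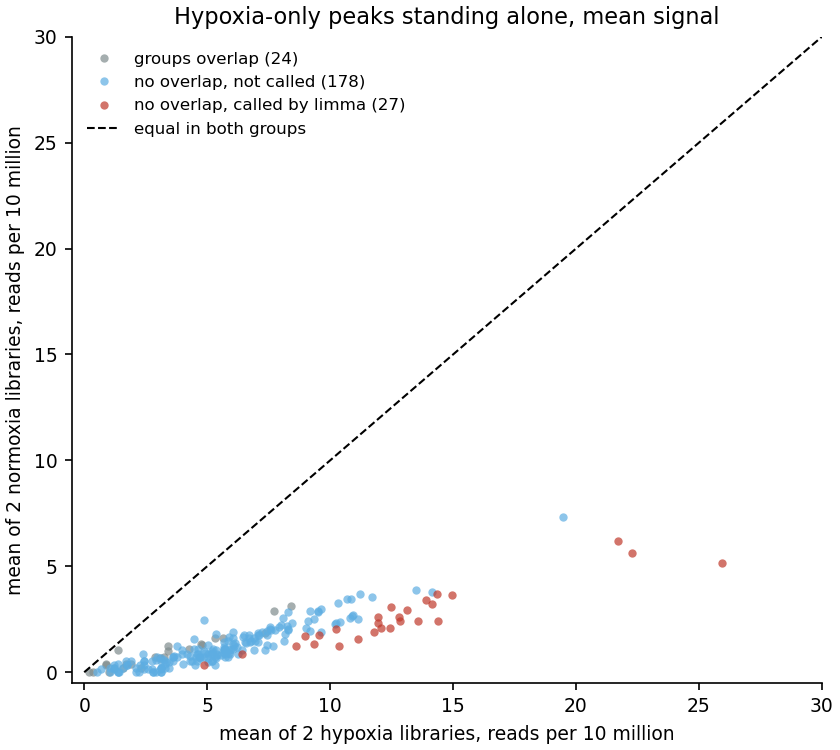
Mean signal of each peak over the 2 normoxia libraries against that over the 2 hypoxia libraries, in scaled reads, with a dashed line at equality. The 27 peaks called by limma, the 178 not called but without overlap between the groups and the 24 with overlap all lie below the line, which the choice of the peaks sets.

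Zeros were common in normoxia. Both normoxia libraries had no read at 15 peaks and at least 1 of them had none at 57, whereas at least 1 hypoxia library had none at 5 peaks. Replicates also differed at single peaks. At 60 the hypoxia values differed by more than 2-fold after 1 was added to each, which leaves out some weak peaks over 2-fold in the plain values. Hypoxia replicate 2 was higher than replicate 1 in 65.9% of the 229 peaks, close to its 63.7% over all peaks. In normoxia, replicate 2 was higher than replicate 1 in 42.4%, beside 38.4% of the abutting hypoxia-only peaks and 64.5% of all peaks. A tie, as where neither library had a read, counted as not higher. A read was worth 0.375 in normoxia replicate 1 and 0.334 in replicate 2, so equal read numbers also left replicate 2 lower.

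Shared peaks of the same width give a scale for these levels, with the lower level in normoxia set by the choice of the 229. The 56 of them that were 300 bp wide had a median mean signal of 4.73 in hypoxia and 0.729 in normoxia, and the 3448 shared peaks of 300 bp had 3.99 and 3.38. Per 100 bp of width, the median of all 229 was 1.51 in hypoxia and 0.292 in normoxia, and that of shared peaks was 1.55 and 1.25. The abutting hypoxia-only peaks had 1.11 and 0.224 per 100 bp.

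The peaks with the highest hypoxia signal were led by one in an intron of Arhgap44, which encodes a GTPase-activating protein. Over its 1100 bp (chr11:65033001-65034100) the signal was 22.3 and 29.6 in hypoxia against 6.0 and 4.34 in normoxia, from 63, 87, 16 and 13 reads. The groups were far apart, and the difference was -2.13 on the log2(signal + 1) scale. The nearest shared peak, 1100 bp away, had a difference of 0.51 and so was higher in normoxia.

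Second stood an intergenic peak whose nearest protein-coding gene was the predicted gene Gm3636. It overlapped the non-coding transcript Gm26680 at chr14:6756401-6757500, and its signal was 18.4 and 26.2 in hypoxia against 5.62 and 5.67 in normoxia. It was the most isolated of the 229, with 647300 bp to any other peak, and also the one with the highest GC content, 74.3% in the printed window. Its difference was -1.79, with no overlap between the groups.

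Upstream of Pdlim5, which encodes a PDZ and LIM domain protein of the actin cytoskeleton, a peak at chr3:142423301-142424400 had a signal of 13.8 and 29.6 in hypoxia against 6.75 and 5.67 in normoxia. It lay 27605 bp from the start site, and its difference was -1.57. The widest peak spanned 2500 bp in an intron of Mbnl1, which encodes a splicing regulator, at chr3:60555001-60557500. Its signal was 12.4 and 26.5 in hypoxia against 8.62 and 6.01 in normoxia, and with a difference of -1.23 it was not called by limma. In both peaks hypoxia replicate 2 was more than 2-fold above replicate 1, and the groups still did not overlap. An intron of Atxn1, the gene of a polyglutamine disease protein, held a peak of 1100 bp at chr13:45807101-45808200 with 13.8 and 7.82 in hypoxia against 3.75 and 1.33 in normoxia.

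The largest falls among the better covered peaks were shared between the X chromosome and the autosomes. Upstream of Mbtps2, which encodes the site-2 protease that releases membrane-bound transcription factors, a peak at chrX:157612801-157613400 had a signal of 8.85 and 11.9 in hypoxia against 1.12 and 1.33 in normoxia, a difference of -2.34. It overlapped the processed pseudogene Gm15173 and had a GC content of 70.0%. A peak 3948 bp upstream of the histone variant gene H2al1n (chrX:14206501-14207200) had 14.5 and 14.3 in hypoxia against 1.12 and 3.67 in normoxia. H2al1n belongs to a family of similar copies on X, so reads could be split among copies despite the mapping quality minimum of 15. A peak 31669 bp upstream of the deubiquitinase gene Usp51 (chrX:152974001-152974800) had 11.3 and 12.2 in hypoxia against 1.5 and 2.34 in normoxia.

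On chromosome 9 an intron of Bfsp2, which encodes a filament protein of the lens, held a peak at chr9:103455601-103456300 with 12.4 and 9.86 in hypoxia against 1.5 and 1.67 in normoxia. At Bfsp2 the peak also overlapped the antisense RNA 5830418P13Rik. All of these peaks were free of overlap between the groups, and limma called each of them.

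Pairs of peaks close together were rare. The gap from one of the 229 to the next had a median of 2879800 bp, and only 4 peaks, in 2 pairs, lay within 5 kb of another. The first pair sat in an intron of Rspo2, the gene of an R-spondin that strengthens Wnt signalling, with 1800 bp between them. At Rspo2 the first peak (chr15:43113401-43114400) had a signal of 7.43 and 11.2 in hypoxia against 0.375 and 2.34 in normoxia, and the second (chr15:43116201-43116900) had 3.89 and 9.52 against 1.87 and 1.67. The second pair, 2000 bp apart, sat in an intron of Mid1, the gene of a microtubule-bound ubiquitin ligase, with 4933400A11Rik as the gene of the nearest start site. In the Mid1 intron the first peak (chrX:169735701-169737500) had 8.85 and 15.3 in hypoxia against 1.5 and 2.67 in normoxia, and the second (chrX:169739501-169740100) had 3.18 and 8.5 against 2.25 and 0.667. Both members of either pair were lower in both normoxia libraries. By nearest gene, 6 genes had 2 of the peaks each (Rspo2, Nrip1, Fshr, Glis3, Frmpd4 and 4933400A11Rik) and 217 had 1.

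Not every peak separated the groups. In 24 of the 229 the hypoxia and normoxia values overlapped. In 16 of these the lower hypoxia value came from replicate 1 and in 8 from replicate 2. Only 4 of the 24 were wider than 300 bp, and 14 were 100 or 200 bp wide. Upstream of Usp46, a deubiquitinase gene, the signal was 10.3 and 1.02 in hypoxia against 2.25 and 1.0 in normoxia, so the hypoxia replicates differed from each other more than the groups did. In the peak nearest to Nme8, inside an intron of Gpr141, it was 1.77 and 8.84 in hypoxia against 1.87 and 1.33 in normoxia. In the peak 191469 bp upstream of Rai2 it was 3.89 and 12.9 against 2.25 and 4.0. The smallest fall among the better covered peaks was in an intron of Nfatc2, the gene of a calcium-regulated transcription factor, where 5.66 and 4.08 in hypoxia stood beside 2.62 and 2.34 in normoxia, a difference of -0.74 without overlap. The other small falls were at Smim15, with 4.25 and 11.2 against 1.12 and 4.67, and Gm21962, with 5.31 and 5.44 against 2.25 and 1.33.

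By place, the 229 peaks were mostly distal. Relative to protein-coding genes of GENCODE M21, 14 (6.11%) lay within 1 kb of a start site, 13 (5.68%) overlapped another exon, 106 (46.3%) lay in introns and 96 (41.9%) were intergenic. The share within 1 kb of a start site was 13.6% among the abutting hypoxia-only peaks and 13.8% among shared peaks. The median distance to the nearest start site was 27605 bp, beside 18623 bp and 25462 bp for those sets, and 45 of the peaks were over 100 kb from any. Counting start sites of all annotated transcripts, non-coding ones included, raised the number within 1 kb from 14 to 26.

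Among the 14 promoter peaks, 8 lay directly over a start site and 4 of the 14 were on X. The strongest covered the start of Tmsb15b2, which encodes a beta-thymosin that binds actin monomers, at chrX:136957601-136958400. Its signal was 18 and 11.9 in hypoxia against 2.62 and 4.67 in normoxia, a difference of -1.79. Tmsb15b2 also has similar copies on X. The peak over the start of Rab33a, a small GTPase gene of the secretory pathway, had a signal of 12.4 and 12.6 in hypoxia against 4.12 and 2.0 in normoxia. Its hypoxia replicates were nearly equal, and both normoxia values were lower.

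Upstream of Sycp3, which encodes a structural protein of the meiotic synaptonemal complex, the peak had a signal of 11.3 and 15.6 in hypoxia against 3.75 and 4.0 in normoxia. Its nearest edge was 969 bp from the Sycp3 start site, inside an intron of Chpt1, the gene of an enzyme of phosphatidylcholine synthesis. Over the start of Adam2, which encodes a sperm surface protein needed for fertilization, it was 6.02 and 6.80 in hypoxia against 0.375 and 1.33 in normoxia. Over the start of Cfap161, named for cilia and flagella, it was 8.14 and 9.86 against 1.12 and 2.34. The groups did not overlap at any of these 3 promoters, and Adam2 and Cfap161 were called by limma while Sycp3 was not.

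In Mvp, which encodes the main protein of the vault particle, the signal was 6.02 and 13.3 in hypoxia against 2.62 and 3.34 in normoxia. At Gzmk, a granzyme gene of cytotoxic lymphocytes, it was 8.49 and 5.10 in hypoxia against 2.25 and 0.667 in normoxia, from 24, 15, 6 and 2 reads. The sort removed CD45+ blood cells, and Ptprc, the gene of CD45, had no promoter peak. Over the start of Fndc3c1, 99000 bp from any other peak, it was 3.54 and 12.9 in hypoxia against 3.0 and 1.33 in normoxia. The Fndc3c1 groups were separated only narrowly, by hypoxia replicate 1.

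The remaining named promoters were weaker. Cmc4, a gene of a small mitochondrial protein, had a signal of 3.18 and 5.78 in hypoxia against 1.5 and 0.667 in normoxia. Slc7a1, the gene of a cationic amino acid transporter, had 4.60 and 2.04 against 0 and 1.0. Hlcs, the gene of the enzyme that attaches biotin to carboxylases, had 1.77 and 2.72 in hypoxia and no read in either normoxia library. The promoter peak of Esm1, which encodes the endothelial proteoglycan endocan, was the single peak of the 229 whose difference was above 0. There the signal was 0 and 2.72 in hypoxia against 1.12 and 1.0 in normoxia, from 0, 8, 3 and 3 reads, so the groups overlapped. Of the 14 promoter peaks, 12 had no overlap between the groups, beside 86.1% of all promoter peaks in the table. Tmsb15b2, Rab33a, Cfap161 and Adam2, 4 of the 14, were called by limma, beside 16.7% of all promoter peaks.

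Genes of 11 lists that suit bone MSCs and low oxygen were the nearest gene of 10 of the 229 peaks (4.37%), beside 4.23% of the abutting hypoxia-only peaks and 2.84% of all peaks. No peak had a gene of the osteogenic, chondrogenic, hypoxia response, YAP/TEAD target or blood and endothelial lists as its nearest gene. In the same order, these lists held the nearest gene of 0.219%, 0.180%, 0.194%, 0.141% and 0.191% of all peaks. A count of 0 among 229 lies near such shares, so nothing is read from it. Of the 10 peaks, 8 had no overlap between the groups and 1, near Actb, was called by limma, beside 64.0% and 5.31% of all peaks nearest to a listed gene. None of the 10 lay at a promoter, and 6 lay within 100 kb of the start site.

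The peak near Actb, the beta-actin gene, lay 19347 bp upstream at chr5:142926101-142926900 and held a CArG box, the motif of the serum response factor. Its signal was 16.3 and 10.9 in hypoxia against 1.87 and 3.0 in normoxia, a difference of -2.08. Among matrix genes, a peak 10801 bp upstream of Fn1, the fibronectin gene, had 7.08 and 7.82 in hypoxia against 1.87 and 0.667 in normoxia. Both peaks separated the groups widely, and the Fn1 peak held an AP-1 match. The fibrillar collagen genes Col3a1 and Col5a2 are neighbours, and 2 of the peaks lay in introns of Col5a2. The one whose nearest start site was that of Col3a1 (chr1:45398501-45399400) had 6.02 and 9.52 in hypoxia against 3.0 and 1.0 in normoxia, and its central window was repeat-masked over 100% of its length. The other, 200 bp wide and nearest to the Col5a2 start site, had 2.83 and 1.36 against 0.375 and 0.

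Of the signalling and niche genes, Kitl encodes stem cell factor, which niche cells present to blood stem cells. The peak nearest to Kitl, 154885 bp downstream of its start, had a signal of 6.72 and 7.14 in hypoxia against 2.25 and 0.667 in normoxia, and it held a CTCF match. The peak nearest to Inhba, an activin subunit gene, lay 115351 bp away over the pseudogene B230303A05Rik and had 5.66 and 7.82 in hypoxia against 1.5 and 1.33 in normoxia. An intron of Ebf2, the gene of a factor of the adipogenic and stromal lineages, held a peak with 3.18 and 11.6 against 0.375 and 3.34, where the groups overlapped. The peak 296397 bp upstream of Nt5e, which encodes the MSC surface marker CD73, had 1.06 and 2.38 against 0 and 0.667. The 2 peaks assigned to immediate-early genes were weak. Upstream of Fos the signal was 2.83 and 5.78 in hypoxia against 1.5 and 0 in normoxia, and the 100 bp peak upstream of Klf6 held 1 read in all, in hypoxia replicate 1.

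**Figure D3:**
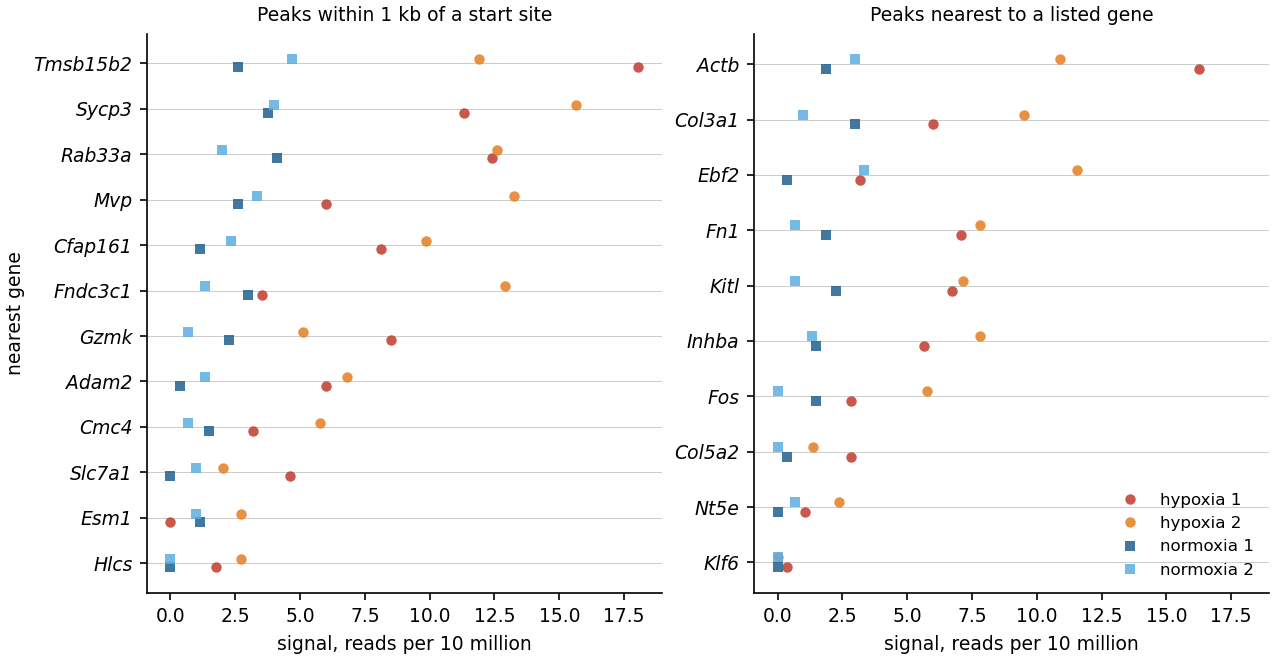
Signal in scaled reads in each of the 4 libraries (circles hypoxia, squares normoxia) at 12 of the peaks within 1 kb of a start site and at the 10 peaks nearest to a listed gene, 1 row a peak. At Actb the hypoxia values of 16.3 and 10.9 lie far to the right of the normoxia values of 1.87 and 3.0, whereas at Esm1 the points of the groups are mixed.

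The X chromosome held more of the peaks than any other chromosome. It had 33 of the 229 (14.4%), beside 9.56% of the abutting hypoxia-only peaks, 2.25% of shared peaks and 2.76% of all peaks. Hypoxia-only peaks of either kind made up 24.0% of the peaks on X and 6.34% of those on autosomes. Of the hypoxia-only peaks on X 3.89% stood alone, and of those on autosomes 2.48%. Chromosome 5 came next with 18 peaks (7.86%), while chromosome 4 had 2 and chromosome 8 had 5.

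The 33 peaks on X had a median width of 500 bp and a median signal of 7.99 in hypoxia and 1.92 in normoxia. The 196 elsewhere had 300 bp, 5.35 and 1.03, and the median differences were -1.64 and -1.62. On X 31 of the 33 had no overlap between the groups, beside 67.7% of all peaks on X, and 7 of the 33 were called by limma, beside 5.70% of all peaks on X. Shared peaks on X had a median difference of -0.55 and those on autosomes -0.40. The X peaks were spread over most of the chromosome, from chrX:7001501 to chrX:169959600.

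**Figure D4:**
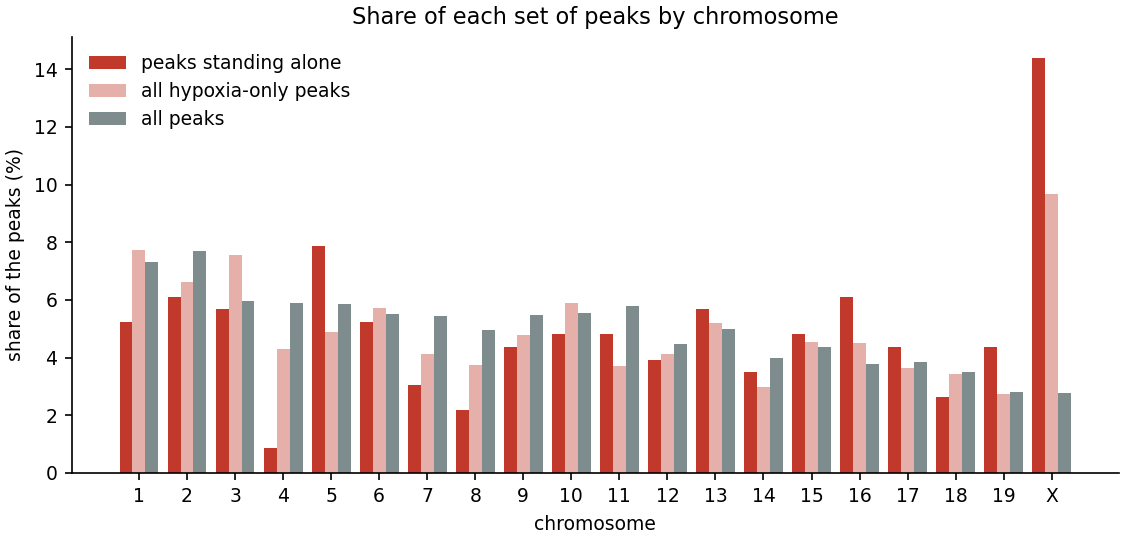
Share in percent of the 229 peaks standing alone, of all hypoxia-only peaks and of all peaks on each autosome and X. On X the 3 bars stand at 14.4%, 9.69% and 2.76%, and on chromosome 4 at 0.873%, 4.28% and 5.90%.

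The rule required only that no shared peak abut, so the distance to the next shared peak varied from 100 to 647300 bp, with a median of 2800 bp. In 24 of the 229 the gap was a single step of 100 bp, in 40 it was at most 300 bp, the bin size of the caller, and in 45 it was over 10 kb. Just inside the rule, with a gap of 100 bp, were the 200 bp peak in Col5a2, the peak in an intron of Setd7 (signal 1.42 and 1.02 in hypoxia against 0 and 0.334 in normoxia) and the one near Prpf38b (2.12 and 3.74 against 0 and 0). Just outside it were 3 peaks of 100 bp that abutted a shared peak, near Capza2 (2.48 and 1.70 against 0 and 0), Plat (3.89 and 1.02 against 0.750 and 0.334) and Zfp365 (1.42 and 2.38 against 0.375 and 0). The values of these 3 and 3 peaks spanned overlapping ranges. Those inside were the first by genome order of the 24 with a gap of 100 bp, and those outside had the narrowest total run. Over the full sets the median hypoxia signal was 5.64 in the 229 and 2.98 in the abutting hypoxia-only peaks.

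The 40 peaks within 300 bp of a shared peak were weaker than the other 189. Their median width was 200 bp and their median signal 1.80 in hypoxia and 0.334 in normoxia, against 400 bp, 6.03 and 1.25 in the 189. All 27 called peaks and 178 of the 205 without overlap were among the 189, beside 4.57% called and 59.5% without overlap over all peaks. The called peaks were all at least 300 bp wide, and the parts of distance, width and signal in these counts were not tested. Of the 33 peaks on X, 32 were among the 189. Farthest out, behind Gm3636 and Fndc3c1, was a peak over an untranslated exon of Xrn1, which encodes an RNA exonuclease, 62600 bp from any other (chr9:96054901-96055400). Its signal was 9.55 and 2.72 in hypoxia against 0.750 and 2.0 in normoxia.

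The nearest shared peaks were themselves stronger and fell less. Their median mean signal was 20.8 over the 4 libraries and their median difference -0.51, and 195 of them were lower in normoxia. In 220 of the 229 cases the peak standing alone had the more negative difference, which its choice sets.

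The median GC content of the central 300 bp was 45.7%, beside 45.0% in the abutting hypoxia-only peaks and 46.3% in shared peaks, and it ranged from 29.3% to 74.3%. This window was centred on the midpoint of a peak whatever its width. It therefore reached past the edges of the 35 peaks of 100 bp and the 25 of 200 bp. The abutting peaks had a lower quartile of width of 100 bp, so their windows could enter the shared peak beside them. Soft-masked repeats covered a median of 12.0% of the window, beside 16.0% and 8.33%, and over 50% of it in 22 of the 229. Judged by a GC content of at least 55% and a ratio of observed to expected CpG of at least 0.6, a measure chosen after the values were seen, 7 windows were CpG-rich, and 4 of these were on X. They were the windows of Gm3636, Rab33a, Fndc3c1, Lamp2, Mpp1, Tmtc1 and Myo10. The CpG ratio was computed for the 229 only, so no share of other peaks stands beside the 7 or the 4 on X. The peak in Tmtc1 overlapped the pseudogene Rps4l, with 6.37 and 4.42 in hypoxia against 0 and 1.67 in normoxia, and the one in Myo10, which encodes an unconventional myosin, overlapped coding sequence, with 3.18 and 3.06 against 0.375 and 0.

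The letters of 11 motifs were searched on both strands of the central 300 bp, which at peaks narrower than that included flanking sequence. RUNX letters (TGTGGT) were held by 71 of the 229 (31.0%), beside 21.7% of the abutting hypoxia-only peaks, 26.6% of shared peaks and 26.3% of all peaks. AP-1 letters (TGANTCA) were held by 42 (18.3%), beside 10.0%, 21.3% and 20.6% in the same order. TEAD letters (GGAATG) were held by 36 (15.7%), beside 15.2%, 21.8% and 21.3%. In shared peaks of 300 bp, the median width of the 229, the shares were 30.1% for RUNX, 29.1% for AP-1 and 24.0% for TEAD letters. At least 1 of these 3 was present in 119 windows, and all 3 in 5, among them those of Gzmk, Cmc4 and Rai2.

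The hypoxia-inducible factors, which are stabilized at low oxygen, have short core letters that were searched in both forms. ACGTG was held by 14.0% of the 229 and 14.9% of shared peaks, and GCGTG by 13.5% and 17.5%. The C/EBP letters TTGCNNCAA were held by 4.80%, beside 2.78% of all peaks, and the CTCF motif by 1.75%, beside 1.78% of all and 0.188% of the abutting hypoxia-only peaks. The E-box CAGCTG was held by 15.3%, the SP/KLF box GGGCGG by 7.86%, the ETS letters CCGGAAGT by 0.437% and the CArG box by 2.18%, beside 17.1%, 9.67%, 0.586% and 1.65% of all peaks. With AP-1 letters the median hypoxia signal was 6.36 and the median difference -1.65, and without them 5.22 and -1.62. With RUNX letters they were 5.35 and -1.56, and without them 5.69 and -1.63. None of the motif letters contains another, although neighbouring matches may overlap at their ends.

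**Figure D5:**
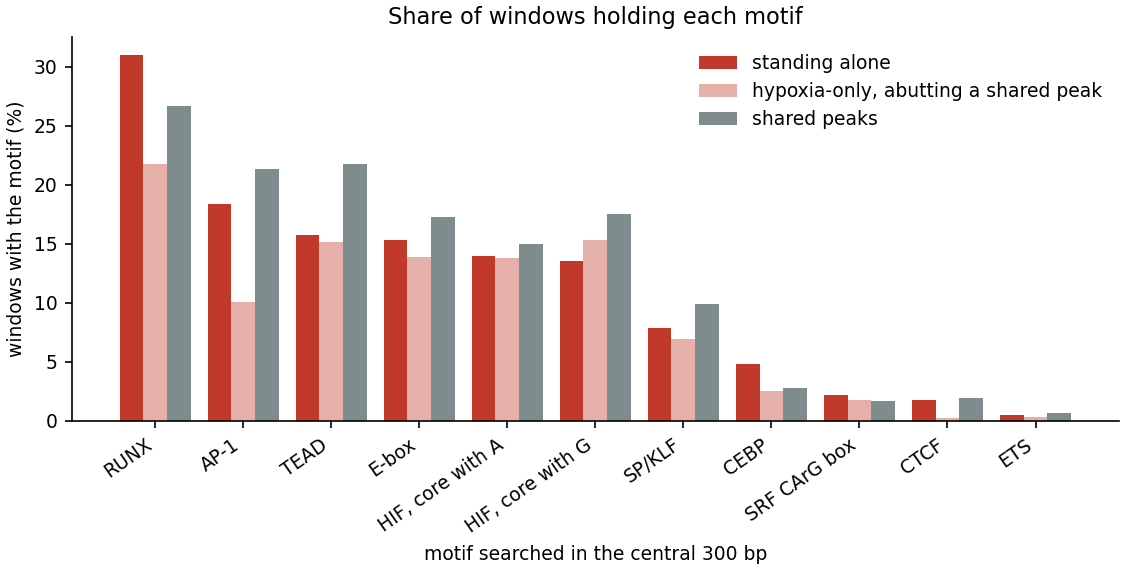
Share in percent of central 300 bp windows that hold each of the 11 motifs, in the 229 peaks standing alone, the abutting hypoxia-only peaks and the shared peaks. For AP-1 the 3 bars stand at 18.3%, 10.0% and 21.3%, and for RUNX at 31.0%, 21.7% and 26.6%.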

How the data were processed

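ATAC-seq was performed on 50000 cells per sample. Per the study's methods, reads were mapped by the authors to mm10 with bowtie2, duplicates were removed with Picard and peaks were called over both groups with chromstaR in differential mode (bin size 300, step size 100, minimum mapping quality 15). The deposited signal per peak, which the authors call RPKM, was not divided by width. Dividing the values of a library by the smallest one gave whole numbers for 100% of peaks (within 0.01), and these were taken as reads, with 10000000 over that step as the library total. Whether the recovered reads are fragments or positions is not known, and bins can share a read, so no counting interval is given.

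The 229 peaks, the gene lists and the motifs were chosen with earlier results of these data known, and nothing given for the 229 is independent support. Overlap, place, sequence and differences were computed in Python 3.11.15 with pandas 2.3.3 from values as deposited. Promoters lay within 1000 bp of the start of any protein-coding transcript of a protein-coding gene (GENCODE M21), and no peak passed the end of a reference chromosome. Calls came from limma 3.58.1 in R 4.3.3 (trend and robust) on log2(signal + 1) after RLE size factors, two-sided, adjusted by Benjamini-Hochberg over all 128055 peaks at an FDR under 0.01. The fit was also run on simulated data without a group difference in the share of reads in peaks. That run therefore does not cover the difference in this share between the real groups. Alternatives were other scalings, pseudocounts of 0.1 and 5, a mean signal of at least 5, an FDR under 0.05, edgeR 4.0.16 on recovered reads, a replicate block, leaving out each library, and other definitions of place and window. The study describes the 2 libraries of a group as biologically independent, which the labels do not state.

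Named peaks were the 6 with the highest hypoxia mean, the 6 widest, the 6 largest and 6 smallest falls among peaks with at least the median mean signal, the 12 strongest of the 14 promoter peaks, every peak nearest to a listed gene, the 3 nearest to and the 3 farthest from another peak, and 3 just outside the rule. The close pairs and the CpG-rich windows were singled out after their values were seen. Printed sequences were limited to peaks of the highest signal and to promoter peaks outside protein-coding exons. 1 marker gene is not reported here.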

Additional observations from a re-analysis of the deposited data

How the results depend on the processing

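The number of the 229 peaks called lower in normoxia depended most on the processing. Beside the share of all peaks called, it was 27 (4.57%), and it went to 150 on the values as deposited (24.0%), 12 with equal totals over peaks (0.837%), 14 with quantile normalization (0.720%), 15 with a pseudocount of 0.1 (3.35%), 111 at an FDR under 0.05 (9.68%) and 42 with edgeR on recovered reads (5.70%). Without trend and robust estimation limma called 0 of the 229 and 0 of all peaks, while 167 of the 229 and 11.2% of all peaks had an unadjusted p under 0.05. Leaving out 1 library gave 0 to 38 calls. It gave 0 over all peaks without either hypoxia replicate, in fits where the lone library was assumed to vary like the other group. A replicate block gave 59 (6.61%). The shared numbers do not pair the libraries by any label, and the correlation of same-numbered deviations was 0.011 over all peaks and -0.016 over the 229. The median difference of -1.62 became -1.09 with equal totals, -1.10 with quantile normalization, -2.28 with a pseudocount of 0.1 and -0.78 with one of 5, and the cause of the lost calls was not tested. Scaling moved the median of all peaks from -0.44 to -0.0040 with RLE factors and 0.26 with equal totals. Promoter peaks rose from 14 to 26 with start sites of all annotated transcripts. Of 42 alternatives run, 15 were labelled as moved, 27 as the same and 0 as reversed. The label of the same still covered changes in number. Examples were 40 calls with a pseudocount of 5 (4.69% of all peaks) beside 27, and 173 peaks without overlap with equal totals (13.5% of all peaks) beside 205. The restriction to peaks over 300 bp from a shared peak was chosen after seeing the data. Low read numbers limit every single peak.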
